A study of Homo sapiens with 18 samples.

Results

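The 10 genes described here are of scramblase and lipid transfer protein families, which move phospholipids, among them phosphatidylserine, within or between membranes. They are the plasma membrane scramblase genes XKR8 and ANO6, the phospholipid scramblase family genes PLSCR1, PLSCR3 and PLSCR4, the oxysterol-binding protein family genes OSBPL5, OSBPL6 and OSBPL8, and the endoplasmic reticulum scramblase genes TMEM41B and VMP1. They were chosen by name, matched by Entrez gene ID, and make up 10 of the 25343 human genes in each deposited table. All 10 passed the filter on low counts that left 14074 genes for testing.

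The tumours were xenografts of HCT116, an established human colon cancer line, carrying a knockout of PTDSS2, so every group, the controls included, lacks the intact gene for 1 of the 2 phosphatidylserine synthases. Host mice received oral DS55980254 at 10 mg/kg or 30 mg/kg, or its methylcellulose vehicle alone, and the tumours were collected after 24 hours, with 6 libraries in each of the 3 groups. The series is about a PTDSS1 inhibitor, and the comparisons ask which transcripts of these genes differed a day after dosing. The labels give neither the age or strain of the mice, nor whether the knockout line is 1 clone, nor whether each tumour grew in its own mouse. The p-values therefore measure only the spread between these libraries, which may be technical.

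Phosphatidylserine is made in the endoplasmic reticulum and is normally held on the cytoplasmic side of the plasma membrane. Scramblases let phospholipids cross a bilayer in both directions without using ATP, and at the plasma membrane this exposes phosphatidylserine on the cell surface, a signal for clotting and for the clearance of dying cells. Some lipid transfer proteins of the oxysterol-binding protein family carry phosphatidylserine from the endoplasmic reticulum to the plasma membrane in exchange for phosphatidylinositol 4-phosphate (PI4P). In the endoplasmic reticulum, scramblases even out newly made phospholipids between the leaflets, which autophagosomes and lipoproteins need in order to form.

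Total counts per library ran from 433981 to 8538792, and 17 of the 18 libraries held at least 3435423. The shallow one was 10 mg/kg replicate 2, whose mean correlation with the others was 0.807, against 0.958 to 0.975 for the rest. Many of the values that rest on it are also given without it. The mean correlations are across all genes on a log2(CPM + 1) scale, with CPM taken there from the library totals alone. Elsewhere CPM are the counts scaled by TMM to a common library size (1000000 counts). The targeted gene PTDSS2 lay between 4.97 and 13.9 CPM over the 18 libraries, and gene counts do not show whether those transcripts carry the edit. The 8 epithelial markers, among them EPCAM and KRT8, summed to 4235 to 7570 CPM. Of the host cell markers, 2 of 7 fibroblast, 1 of 6 endothelial, 3 of 7 leukocyte and 1 of 7 platelet or erythroid genes passed the filter. The leukocyte medians ran from 0 CPM (CD3E) to 6.28 CPM (CD68), with PTPRC at 0.06 CPM. The highest medians of the other lists were 85.5 CPM (COL1A1, fibroblast), 4.11 CPM (VWF, endothelial) and 6.88 CPM (ITGA2B, platelet). The lowest median in each of those lists was 0 CPM. In 10 mg/kg replicate 2 the fibroblast, endothelial and leukocyte sums were the highest of its group, 317, 105 and 72.7 CPM, against at most 106, 19.4 and 23.2 CPM in the other libraries of that group. Their part in the values below was not tested. In such bulk samples, fewer cells of a type and less RNA per cell cannot be told apart.

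The stretches of promoter below are shown because TMEM41B was the gene nearest to the threshold, and because OSBPL8 and PLSCR1 were the only 2 of the 10 genes whose promoters held letters of the 4 motifs searched. The sequences are RefSeq's (GRCh38.p14), read 5′ to 3′ on the strand of the gene and ending before the annotated start; the counts were not made on that build.
TMEM41B, chr11:9314594-9314743, minus strand: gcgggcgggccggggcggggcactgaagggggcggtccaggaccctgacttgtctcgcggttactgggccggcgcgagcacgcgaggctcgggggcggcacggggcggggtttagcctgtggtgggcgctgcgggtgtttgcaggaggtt
OSBPL8, chr12:76559832-76559911, minus strand: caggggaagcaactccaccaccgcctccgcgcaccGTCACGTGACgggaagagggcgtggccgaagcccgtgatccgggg
PLSCR1, chr3:146544642-146544721, minus strand: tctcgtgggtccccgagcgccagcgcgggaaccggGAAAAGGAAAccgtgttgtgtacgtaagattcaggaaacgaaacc
Capitals mark the CLEAR element in OSBPL8, the letters read by the lysosome and autophagy regulator TFEB, and a match to the interferon-stimulated response element in PLSCR1. Windows of 300 bases, 250 of them before the start, were searched on both strands for the CLEAR letters in capitals above, the interferon letters (GAAA, any 2 bases, GAAA), TCACNCCAC (sterol regulatory element) and TGATGNAA (C/EBP-ATF element, read by ATF4). Over all 35116 windows in the table, 0.353% held the first, 3.57% the second, 1.13% the third and 3.62% the fourth. All 10 genes had a window, 14 in all, and 0 of the 14 held the sterol or the C/EBP-ATF letters. The OSBPL8 match lies 105 to 96 bases before the start, and the PLSCR1 match is shared by the windows of both its starts, 79 to 70 bases before the first. A match describes letters in a window and is not a site shown to be bound.

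The levels of the 10 genes were compared with each other in the deposited TPM values, which are scaled for transcript length. VMP1 stood highest, with a median of 164 TPM over 18 libraries (range 32.1 to 212), followed by PLSCR1 at 84.1 TPM (40.4 to 106). Without the shallow library the lowest values were 110 TPM for VMP1 and 65.1 TPM for PLSCR1. VMP1 was above PLSCR1 in 17 of 18 libraries, the exception being the shallow library, and PLSCR1 was above ANO6 in all 18. ANO6 (45.4 TPM) and OSBPL8 (44.5 TPM) were not separable, with ANO6 higher in 10 of 18 libraries. OSBPL5 (34.7 TPM) and TMEM41B (28.5 TPM) also overlapped, OSBPL5 being higher in 10 of 18 libraries and in 5 of the 6 vehicle libraries. XKR8 lay at 13.7 TPM (8.18 to 17.1) and above PLSCR4 in all 18 libraries. PLSCR4 (4.61 TPM) and OSBPL6 (4.51 TPM) were lowest and changed places, with PLSCR4 higher in 8 of 18 libraries but in 5 of the 6 vehicle libraries. Among vehicle tumours, 7 of the 10 genes lay above the median of tested genes, 21.1 TPM. The 7 include PLSCR3 alone, with a vehicle median of 28.0 TPM (7.07 to 38.1) and a median of 16.2 TPM over 18 libraries. Its level is uncertain, as described below. Among vehicle tumours the endoplasmic reticulum scramblase gene VMP1 was at the 94.7th percentile of tested genes, and the caspase-activated scramblase gene XKR8 at the 34.1st.

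**Figure D1:**
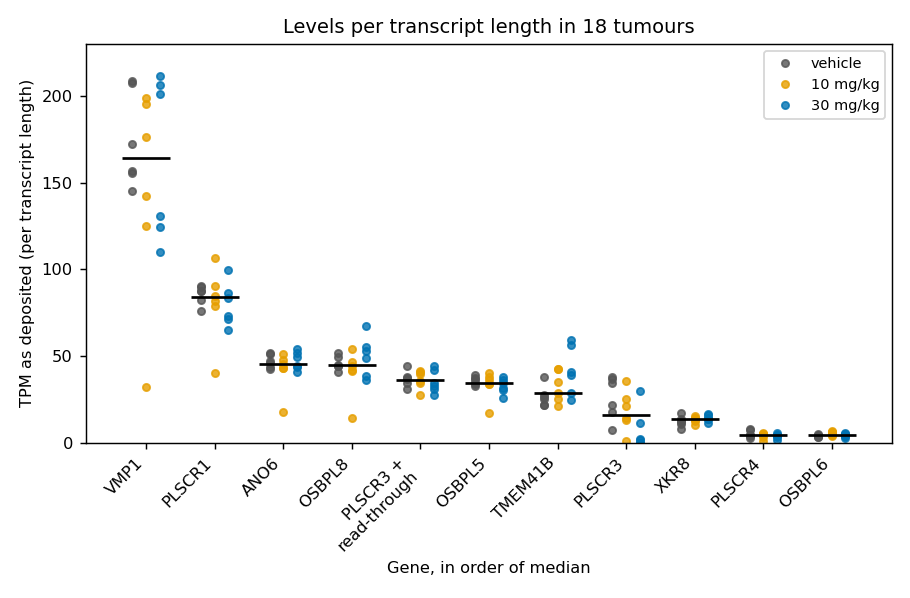
Level of each gene in TPM as deposited (linear axis), 1 point per library, coloured by dose, with a line at the median of 18 libraries; genes run from the highest to the lowest median. VMP1 has the highest median (164 TPM), ANO6 and OSBPL8 share a level near 45 TPM, and the low VMP1 point at 32.1 TPM is 10 mg/kg replicate 2.

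None of the 10 genes passed the threshold in edgeR's quasi-likelihood test (Benjamini-Hochberg adjusted p under 0.05 over all genes tested) in any of the 3 comparisons. At 10 mg/kg against vehicle 0 of 10 were called where 0.469% of all tested genes were, and at 30 mg/kg 0 of 10 where 0.618% were. Between the doses 0 of 10 genes and 0% of all tested genes were called, so these counts are near the background. At an unadjusted p under 0.05 there was 1 of 10 in each comparison, namely OSBPL6 at 10 mg/kg and TMEM41B in the other two. Over all genes those shares were 9.5%, 7.9% and 3.52%. The limma-voom and DESeq2 tests each called 0 of 10 at 10 mg/kg, 1 of 10 at 30 mg/kg (TMEM41B) and 0 of 10 between the doses. Among all genes tested, limma-voom called 65, 107 and 0 in the same order, and DESeq2 called 158, 179 and 0. The limma-voom call of TMEM41B was at the edge of the threshold (adjusted p = 0.04996 in limma-voom). The median log2 fold change of the 10 genes was -0.07 at 10 mg/kg and -0.03 at 30 mg/kg, against -0.01 and 0.00 over all tested genes. Both dose comparisons share the 6 vehicle libraries. Separation of whole groups was counted too. At 10 mg/kg 0 of 10 genes had every library above vehicle (0.689% of all tested genes did) and 0 had every library below it (0.469%). At 30 mg/kg 1 of 10, TMEM41B, lay wholly above vehicle (1.25% of all tested genes) and 0 wholly below (0.476%). Between the doses 0 of 10 lay wholly above (0.0568%) and 0 wholly below (0.0782%).

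**Figure D2:**
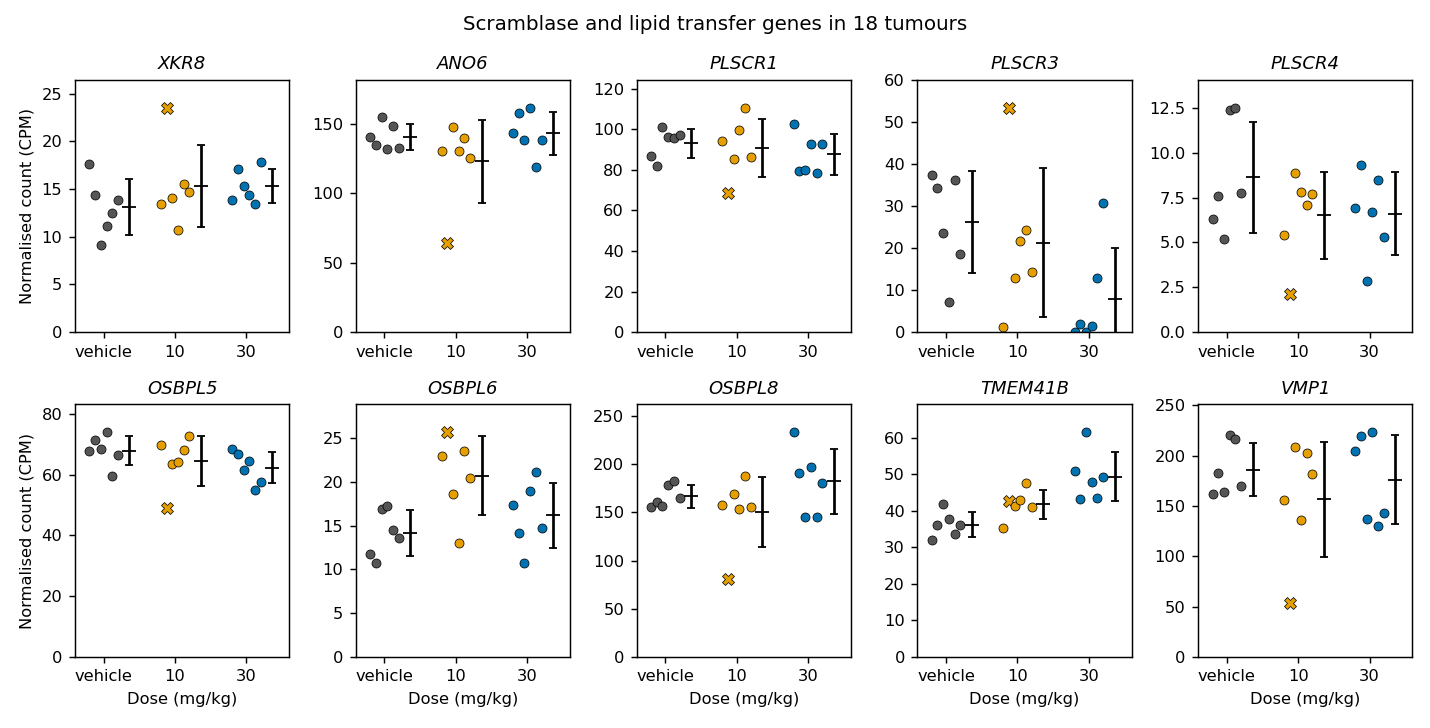
Normalised counts (CPM, linear axes from 0, 1 panel per gene) by dose; points are the 6 libraries of a group, the cross is the shallow library 10 mg/kg replicate 2, and the bars are the mean ± SD (n = 6), the lower end of the PLSCR3 bar at 30 mg/kg being cut at 0. The TMEM41B points at 30 mg/kg, 43.1 to 61.5 CPM, all lie above the vehicle points, while the other 9 genes overlap between the groups.

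TMEM41B, an endoplasmic reticulum scramblase needed for autophagosome formation and lipoprotein export, came nearest to the threshold. With vehicle its level ran from 31.9 to 41.9 CPM (median 36.1), at 10 mg/kg from 35.2 to 47.6 (median 42.1) and at 30 mg/kg from 43.1 to 61.5 (median 48.5). Every library at 30 mg/kg thus lay above every vehicle library, while the 10 mg/kg libraries overlapped both groups. The means were 36.2 ± 3.47, 41.8 ± 4.02 and 49.3 ± 6.69 CPM (SD, n = 6 each). At 30 mg/kg the fold was 1.36 (95% interval 1.17 to 1.59; log2 0.45, SE 0.11), with an adjusted p of 0.0610 in edgeR's test. At 10 mg/kg it was 1.15 (0.980 to 1.35, adjusted p = 0.593 in edgeR), and 30 against 10 mg/kg gave 1.18 (1.01 to 1.39, adjusted p = 0.969 in edgeR). The 30 mg/kg difference passed in 6 of 28 alternative analyses, with an adjusted p from 0.00857 in DESeq2 to 0.790 in limma-trend on TPM. It passed without vehicle replicate 3 (0.0380), without 10 mg/kg replicate 2 (0.0316) or without 30 mg/kg replicate 5 (0.0471), edgeR in each case. Leaving out vehicle replicate 1 gave 0.187, the highest of the 18 fits that leave out a library, and the log2 fold change stayed between 0.38 and 0.50 in them. In deposited TPM the groups overlapped, at 21.5 to 38.0 with vehicle and 24.4 to 59.0 at 30 mg/kg.

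VMP1, the second endoplasmic reticulum scramblase gene, which acts with TMEM41B in autophagy, did not pass at either dose. Its level ran from 162 to 221 CPM with vehicle (median 176), from 53.5 to 208 at 10 mg/kg (median 169) and from 130 to 223 at 30 mg/kg (median 174). The groups overlapped over nearly their whole range, and at 30 mg/kg the libraries fell into 3 at 205 to 223 CPM and 3 at 130 to 143 CPM. The fold was 0.873 at 10 mg/kg (95% interval 0.656 to 1.16) and 0.949 at 30 mg/kg (0.715 to 1.26). Without replicate 2 of the 10 mg/kg group, the log2 fold change at that dose went from -0.20 to -0.07. Its biological coefficient of variation between libraries was 24.1%, above the 15.6% that edgeR's trend gives for genes of that level. TMEM41B was at 11.3% against 15.9%. Both values include the shallow library, where VMP1 stood at 53.5 CPM on 25 counts. Without that library, the SD of log2 CPM within groups went from 0.486 to 0.285 for VMP1 and from 0.155 to 0.160 for TMEM41B. The scatter of VMP1 within groups was most like that of YAP1, the Hippo pathway coactivator, with Pearson's r = 0.97 and Spearman's rho = 0.93 over 17 libraries, as a description. YAP1 is the best match of 14073 genes, and the best match of a tested gene had a median r of 0.87. For the other 9 genes the best match had an r of 0.84 (PLSCR3) to 0.91 (OSBPL8, with the kinase gene PKN2).

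Of the plasma membrane scramblases, XKR8 is switched on by caspase cleavage in apoptosis, and ANO6 (TMEM16F) by calcium. XKR8 ran from 9.17 to 17.6 CPM with vehicle (median 13.2), from 10.7 to 23.5 at 10 mg/kg (median 14.4) and from 13.4 to 17.9 at 30 mg/kg (median 14.8). The highest value was that of the shallow library, where XKR8 rested on 11 counts; without it the 10 mg/kg maximum was 15.5 CPM and the log2 fold change at that dose went from 0.13 to 0.07. Its fold was 1.09 at 10 mg/kg (95% interval 0.853 to 1.40) and 1.17 at 30 mg/kg (0.922 to 1.48), and the groups overlapped. ANO6 ran from 132 to 155 CPM with vehicle (median 138), from 64.2 to 148 at 10 mg/kg (median 130) and from 119 to 162 at 30 mg/kg (median 141). Apart from the value of 64.2 CPM in 10 mg/kg replicate 2, its lowest library at 10 mg/kg stood at 125 CPM. The fold was 0.902 at 10 mg/kg (0.756 to 1.08) and 1.02 at 30 mg/kg (0.855 to 1.21). Without that library, the log2 fold change at 10 mg/kg went from -0.15 to -0.06.

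PLSCR1 encodes an interferon-induced, calcium-binding membrane protein whose own scrambling activity is debated. It ran from 81.9 to 101 CPM with vehicle (median 96.0), from 68.4 to 111 at 10 mg/kg (median 90.3) and from 78.3 to 103 at 30 mg/kg (median 86.3). The 10 mg/kg minimum was again the shallow library, and the next stood at 85.2 CPM. All 3 groups overlapped, with folds of 0.994 at 10 mg/kg (95% interval 0.856 to 1.15) and 0.943 at 30 mg/kg (0.814 to 1.09). Without that library, the log2 fold change at 10 mg/kg went from -0.01 to 0.03. Of 18 other interferon-response genes, 0 passed at either dose in edgeR, limma-voom or DESeq2. An unadjusted p under 0.05 in edgeR was reached by 1 at 10 mg/kg and 0 at 30 mg/kg (5.56% and 0%). Among all genes tested, 9.5% and 7.9% reached it. The median log2 fold changes of the 18 were -0.05 and -0.02. The smallest p among these interferon-response genes was that of the antiviral synthetase gene OAS2, at 1.96-fold at 10 mg/kg (adjusted p = 0.510 in edgeR). IFI6, a second gene of that response, was at 1.11-fold there (adjusted p = 0.650 in edgeR). PLSCR4 had the lowest vehicle median of PLSCR1, PLSCR3 and PLSCR4, with 22 to 61 counts per vehicle library. It ran from 5.17 to 12.5 CPM with vehicle (median 7.68), from 2.14 to 8.89 at 10 mg/kg (median 7.40) and from 2.87 to 9.33 at 30 mg/kg (median 6.81). The value of 2.14 CPM was 1 count in the shallow library, and without it the 10 mg/kg libraries ran from 5.43 CPM upward, inside the vehicle range at the low end. The log2 fold change at that dose then went from -0.28 to -0.22. The groups overlapped, and the folds of 0.823 (0.553 to 1.23) and 0.764 (0.519 to 1.12) had the widest intervals on the log2 scale after those of PLSCR3.

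PLSCR3, the family member found at mitochondria, shares its sequence with a read-through gene, TMEM256-PLSCR3, which runs from the neighbouring TMEM256 into it. On its own PLSCR3 ran from 7.11 to 37.5 CPM with vehicle (median 29.0), from 1.29 to 53.5 at 10 mg/kg (median 18) and from 0 to 30.7 at 30 mg/kg (median 1.78). The read-through gene ran the other way, from 0 to 29.9 CPM with vehicle (median 6.79), from 0 to 40.6 at 10 mg/kg (median 21.3) and from 12.6 to 45.9 at 30 mg/kg (median 28.2). PLSCR3 took all of the counts of the pair in 3 of 6 vehicle libraries, and 0 in 2 of 6 libraries at 30 mg/kg. The 10 mg/kg maximum of 53.5 CPM was the shallow library, and the mean there went from 21.4 to 14.9 CPM without it. The share of PLSCR3 in the pair had a median of 78.9% in the vehicle group, 44.3% in the 10 mg/kg group and 5.91% in the 30 mg/kg group. Added together, the vehicle mean of the pair was 37.5 ± 5.18 CPM, the 10 mg/kg mean 39.7 ± 8.91 CPM and the 30 mg/kg mean 36.2 ± 7.05 CPM (SD, n = 6 each). Without the shallow library the 10 mg/kg mean of the pair was 36.9 ± 6.48 CPM (SD, n = 5). The fold at 30 mg/kg was 0.294 for PLSCR3 alone (95% interval 0.0821 to 1.05, adjusted p = 0.664 in edgeR) and 0.966 for the sum (0.786 to 1.19, adjusted p = 0.993 in edgeR). The log2 fold change of PLSCR3 alone, -1.77, was -3.19 without 30 mg/kg replicate 6 and -4.44 with limma-voom, with no call in any of the 28 alternatives. The biological coefficient of variation of PLSCR3 alone was 123%, against 19.7% for genes of its level. The read-through gene alone was at 2.51-fold at 30 mg/kg (95% interval 0.749 to 8.41, adjusted p = 0.814 in edgeR). The values of PLSCR3 alone are uncertain, since the 2 gene models overlap and the share given to each moved between libraries. That share ran from 19.2% to 100% with vehicle, 3.09% to 100% at 10 mg/kg and 0% to 70.9% at 30 mg/kg. These ranges overlapped, and a difference of the share between the groups was not tested. Whether reads unique to either model differed was not tested.

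**Figure D3:**
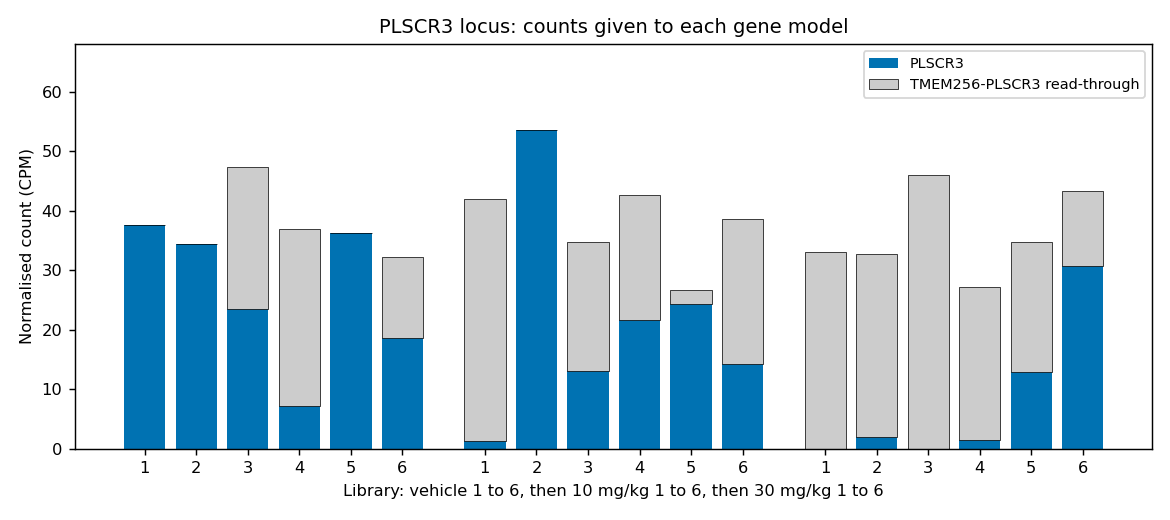
Normalised counts (CPM) given to PLSCR3 (blue) and to the read-through gene TMEM256-PLSCR3 (grey), stacked, 1 bar per library in the order vehicle, 10 mg/kg and 30 mg/kg. Bar heights lie between 26.7 and 53.5 CPM, while the blue part ranges from 0 to the whole bar.

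OSBPL5 (ORP5) and OSBPL8 (ORP8) encode proteins anchored in the endoplasmic reticulum that exchange phosphatidylserine for PI4P where it meets the plasma membrane. OSBPL5 ran from 59.6 to 74.0 CPM with vehicle (median 68.2), from 49.2 to 72.7 at 10 mg/kg (median 66.2) and from 55.1 to 68.5 at 30 mg/kg (median 63.1). The minimum of 49.2 CPM was the shallow library, and the next at that dose stood at 63.6 CPM. OSBPL5 had the smallest biological coefficient of variation of the 10 genes, 9.18%. Its folds were 0.972 at 10 mg/kg (95% interval 0.847 to 1.11) and 0.918 at 30 mg/kg (0.803 to 1.05), and all 3 groups overlapped. Without the shallow library, the log2 fold change at 10 mg/kg went from -0.04 to -0.0050. OSBPL8 ran from 155 to 183 CPM with vehicle (median 163), from 81.3 to 188 at 10 mg/kg (median 157) and from 145 to 233 at 30 mg/kg (median 186). Both the lowest and the highest of the deeply sequenced libraries were thus at 30 mg/kg. The folds were 0.929 at 10 mg/kg (0.762 to 1.13) and 1.09 at 30 mg/kg (0.901 to 1.33). Without replicate 2 of the 10 mg/kg group, the log2 fold change at that dose went from -0.11 to -0.02. Among the pairs of the 10 genes, the deviations of OSBPL8 and VMP1 from their group means were the most alike, with Pearson's r = 0.80 over 17 libraries, as a description.

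OSBPL6, a related gene linked to PI4P turnover, had the largest fold of the 9 genes other than PLSCR3. It ran from 10.8 to 17.3 CPM with vehicle (median 14.0), from 13.0 to 25.7 at 10 mg/kg (median 21.7) and from 10.8 to 21.1 at 30 mg/kg (median 16.0). The maximum of 25.7 CPM was 12 counts in the shallow library, and the next stood at 23.5 CPM. At 10 mg/kg 5 of 6 libraries lay above the highest vehicle library, and the sixth, replicate 4, lay inside the vehicle range. The fold was 1.43 at 10 mg/kg (95% interval 1.10 to 1.85, unadjusted p = 0.00955) and did not pass (adjusted p = 0.325 in edgeR). The log2 fold change of 0.51 became 0.49 without replicate 2 of that group (adjusted p = 0.297 in edgeR). At 30 mg/kg the fold was 1.14 (0.886 to 1.48), and 30 against 10 mg/kg gave 0.801 (0.618 to 1.04). The mean at the higher dose lay between those of vehicle and the lower dose, at 16.2 ± 3.72 CPM against 14.1 ± 2.65 and 20.7 ± 4.49 CPM (SD, n = 6 each).

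**Figure D4:**
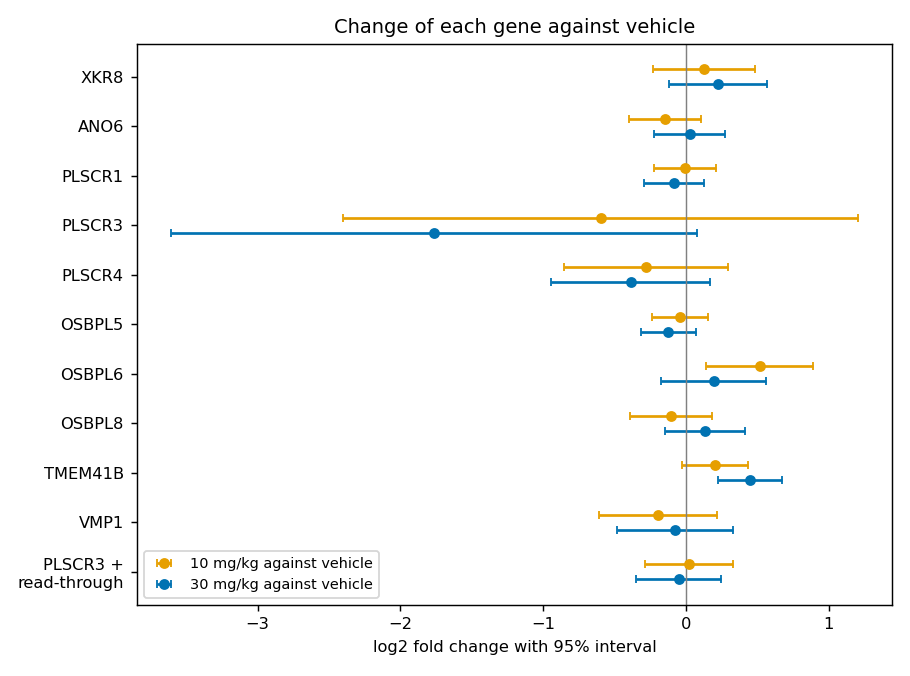
Log2 fold change of each gene against vehicle with its 95% interval from edgeR's fit, at 10 mg/kg (orange) and 30 mg/kg (blue); the last row is the sum of PLSCR3 and its read-through gene. The intervals of TMEM41B at 30 mg/kg (log2 0.45) and OSBPL6 at 10 mg/kg (log2 0.51) lie above 0 before adjustment over all genes, and those of PLSCR3 are the widest.

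Leaving out PLSCR3, the 95% intervals of the 9 genes lay between 0.553-fold and 1.85-fold at 10 mg/kg and between 0.519-fold and 1.59-fold at 30 mg/kg. Those outer bounds were set by PLSCR4 and OSBPL6 at 10 mg/kg and by PLSCR4 and TMEM41B at 30 mg/kg. The intervals of single genes lay inside those bounds, that of OSBPL5 being 0.803 to 1.05 at 30 mg/kg. For scale, INSIG1, the sterol-sensing protein gene, rose 3.03-fold at 30 mg/kg in the same libraries (adjusted p = 2.14e-08 in edgeR).

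Of the genes that work beside these 10, counted by list, none passed in edgeR. Among all genes tested, 0.469% passed at 10 mg/kg, 0.618% at 30 mg/kg and 0% between the doses. Of 21 other scramblases and partners, 13 passed the filter and 0 were called in any comparison by edgeR, limma-voom or DESeq2. An unadjusted p under 0.05 was reached by 0 of the 13, against 9.5%, 7.9% and 3.52% of all genes tested in the 3 comparisons. The median log2 fold changes of the 13 were 0.05 at 10 mg/kg and 0.06 at 30 mg/kg. BSG and NPTN, the chaperones of XKR8, stood at 1.11-fold and 1.03-fold at 30 mg/kg. TMEM41A, a relative of TMEM41B, stood at 1.28-fold at 10 mg/kg (adjusted p = 0.627 in edgeR). Those under the filter were PLSCR2, PLSCR5, 5 relatives of XKR8 and ANO3. Of the other 9 oxysterol-binding protein family genes 0 were called by the 3 tools, with medians of -0.03 and -0.02. In edgeR, 1 of the 9 had an unadjusted p under 0.05 at 10 mg/kg (11.1%, against 9.5% of all genes tested). At 30 mg/kg and between the doses 0 of the 9 did, against 7.9% and 3.52% of all genes tested. OSBPL3 had the smallest p (0.823-fold at 10 mg/kg, adjusted p = 0.428 in edgeR), and its shallow-library value of 79.1 CPM compares with 141 to 168 CPM for the 5 deeper libraries given that dose. The vehicle libraries ran from 158 to 183 CPM, and 5 of 6 libraries at 10 mg/kg lay below all of them. Without the shallow library the OSBPL3 mean at 10 mg/kg was 150 CPM, against 172 CPM with vehicle. OSBPL9 was at 0.842-fold at 10 mg/kg (adjusted p = 0.674 in edgeR), and OSBPL10, which also carries phosphatidylserine, was at 0.982-fold at 10 mg/kg and 0.983-fold at 30 mg/kg.

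For the supply and removal of PI4P, the lipid that drives the exchange, 13 of 14 genes passed the filter and 0 were called by the 3 tools. In edgeR, 0 of the 13 had an unadjusted p under 0.05 at either dose, against 9.5% and 7.9% of all genes tested. Between the doses 1 did (7.69%, against 3.52% of all genes tested). The medians of the 13 were -0.01 at 10 mg/kg and 0.09 at 30 mg/kg, and the PI4-kinase gene PI4K2A stood at 1.16-fold at 30 mg/kg (adjusted p = 0.637 in edgeR). HYCC2, of the complex that brings PI4-kinase to the plasma membrane, was at 1.24-fold in 30 against 10 mg/kg (adjusted p = 0.969 in edgeR). All 27 other transfer and tethering genes of endoplasmic reticulum contacts passed the filter and 0 were called by the 3 tools, with medians of 0.01 at both doses. An unadjusted p under 0.05 was reached by 1 of them at 10 mg/kg, 2 at 30 mg/kg and 4 between the doses in edgeR. Those are 3.7%, 7.41% and 14.8% of the list, against 9.5%, 7.9% and 3.52% of all genes tested. PRELID3A and PRELID3B, homologues of the protein that carries phosphatidylserine into mitochondria, stood at 1.58-fold and 1.43-fold in 30 against 10 mg/kg (adjusted p = 0.969 for each in edgeR). ESYT3, an extended synaptotagmin, stood at 0.552-fold in that comparison (adjusted p = 0.969 in edgeR).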

How the data were processed

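RNA from 18 xenograft tumours was sequenced by the submitters, with 6 libraries each for vehicle, 10 mg/kg and 30 mg/kg. Per the labels' protocols, libraries were made from total RNA with a stranded total RNA kit for low input. The submitters' processing notes name STAR 2.4.2a and the builds hg19 and mm10, with no role for each. For the quantifier, the annotation and the separation of human from mouse reads, the method is not given in the sources used here. Per the file headers, the authors deposited expected counts (estimated reads per gene, unscaled) and TPM (scaled for transcript length and library), 1 table of 25343 genes per library. Where gene models overlap, such estimates divide shared reads between them.

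Symbols came from RefSeq by Entrez ID (25220 genes) or transcript accession (26), and 97 genes had none. Expected counts were rounded, filtered with filterByExpr (14074 genes), scaled by TMM and fitted over all 3 groups with the robust quasi-likelihood test of edgeR 4.0.16 in R 4.3.3. Standard errors are the log2 fold change divided by the root of F. Calls have a Benjamini-Hochberg adjusted p under 0.05 over all genes tested. The code was tested on simulated data. Alternatives were other scalings and filters, limma-voom and limma-trend (limma 3.58.1, the latter on log2(TPM + 1)), DESeq2 1.42.0, the compared groups alone, a replicate block, each library left out, and, added after seeing the data, PLSCR3 summed with its read-through gene.

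DDX58 and RIGI in the interferon list are names of 1 gene. The members, gene lists and promoter motifs were chosen with earlier results of these data known. Every member is named; other lists name up to 4 genes past the threshold or, with none, the 2 with the smallest p, apart from BSG, NPTN, OSBPL10, PRELID3B, INSIG1 and PTDSS2, named for their roles after values were seen. One gene that this rule would name is not reported here. Best matches by correlation used log2 CPM (prior count 2) of the libraries above 1000000 counts.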

Additional observations from a re-analysis of the deposited data

Results flagged for a closer look

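Among the 10 genes in each of 3 groups, 30 sets of 6 libraries, 2 sets had a library that stood apart from the rest by Dixon's ratio (gap to the next library over the range, critical value 0.625), and chance flags about 1 set in 20. Both were the shallow library 10 mg/kg replicate 2. ANO6, the calcium-activated scramblase gene, was lowest there, at 64.2 CPM, with a ratio of 0.735. OSBPL8, the phosphatidylserine and PI4P exchanger gene, was also lowest there, at 81.3 CPM, with a ratio of 0.679. Those values rest on 30 and 38 counts.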

How the results depend on the processing

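Of the 10 genes only TMEM41B at 30 mg/kg was called under any alternative, so the count of called genes there became 1 with limma-voom, DESeq2 and the groups compared alone, and 0 to 1 when a library was left out; the counts at 10 mg/kg and between the doses stayed at 0 in every alternative run. Over all genes, the 66 calls at 10 mg/kg became 32 without a filter, 158 with DESeq2, 12 with limma-trend on TPM and 36 from the groups alone, and 31 to 121 without a library (31, 40 and 42 without vehicle replicates 5, 2 and 1, and 121 without 10 mg/kg replicate 2). The 87 calls at 30 mg/kg became 57, 179, 23 and 191 in the same settings, and 61 to 182 without a library (182 without 10 mg/kg replicate 2). With the replicate block, 24 genes were called at 10 mg/kg and 60 at 30 mg/kg, and none of the 10 (TMEM41B at 30 mg/kg, adjusted p = 0.143 in edgeR with the block). The labels do not say what a number stands for. Of 18 same-numbered pairs of libraries, 3 had deviations correlated above 0.1, and 1 of 18 libraries correlated best with its own number, so the numbers are not taken to pair the samples. Except where a setting's own construction shows it, the cause was not tested.

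Of 840 log2 fold changes of the 10 genes (30 results under 28 alternatives), 809 kept their sign and side of the threshold and 25 changed sign. PLSCR1 at 10 mg/kg (-0.0081) became 0.0032 with DESeq2 size factors, 0.0021 with library totals, 0.0046 with at least 5 CPM in 6 libraries, 0.0018 with limma-voom and 0.010 with DESeq2, and ran from -0.067 to 0.033 without a library. PLSCR3 at 10 mg/kg became 0.020 when summed with its read-through gene, which adds the counts of that gene. ANO6 at 30 mg/kg became -0.0037 with library totals and ran from -0.0088 to 0.074 without a library. Between the doses, limma-trend on TPM gave 0.034 for PLSCR1, 0.036 for PLSCR4 and 0.017 for OSBPL5, and leaving out a library gave -0.23 to 0.032 for PLSCR4 and -0.0090 to 0.20 for VMP1.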
